A study of Homo sapiens with 26 samples.

Results

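A set of 10 genes of the extracellular proteolysis system were followed across 3 established human pancreatic ductal adenocarcinoma lines: the matrix metalloproteinases MMP1, MMP7, MMP13, MMP14, MMP24 and MMP28, the disintegrin metalloproteinases ADAM8 and ADAM28, and the tissue inhibitors TIMP1 and TIMP2. They are 10 of the 62703 genes counted in Panc10.05 and in BxPC3 and of the 62754 counted in AsPC-1, which the labels spell ASPC1. Each gene was taken by matching its symbol to the Ensembl identifier of its row. The symbols themselves were selected on measured values of these same libraries, and which values or comparisons served for that is not recorded. The members' fold changes and adjusted p-values, which were computed over all genes, therefore describe single genes in these libraries, and nothing about the families is read from how many members passed a threshold.

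Matrix metalloproteinases are zinc-dependent proteases made as inactive precursors that, once activated, cut collagens, other matrix proteins and cell-surface proteins. Most are secreted, a few are held in the plasma membrane, and the ADAM proteases are membrane proteins best known for shedding growth factors, cytokines and receptors from the cell surface. Tissue inhibitors of metalloproteinases (TIMPs) bind the active site of these enzymes. In pancreatic cancer part of this system is made by stromal cells and part by the tumour cells themselves, with MMP7 a known product of the duct-like epithelium.

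The study altered HNF4A, a nuclear receptor transcription factor of liver, gut and pancreas whose gene has the alternative promoters P1 and P2. Panc10.05 carried a doxycycline-inducible P1 isoform (P1-a2, 25 ng/mL), P2 isoform (P2-a8, 12.5 ng/mL) or GFP control (NC, 25 ng/mL), and BxPC3 carried P1-a2, P2-a8 or a control titled EV-NC, all at 500 ng/mL, with 2 libraries per group. AsPC-1 carried CRISPR interference, in which a guide RNA directs a repressor to a promoter, with guides named for P1 (sgP1E and sgP1J), for P2 (sgP2D and sgP2G) or for both (sgDual2 and sgDual3) and a control guide (sgNC), with 2 libraries per guide and no dose stated. Whether replicates came from separate cultures and whether a line was 1 clone is not given in the sources used here, so p-values measure only the spread between these libraries, which may be technical.

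HNF4A itself, counted over all isoforms, was at 0.058 and 0.24 CPM (read counts scaled to a common library size) in the Panc10.05 controls, at 10.7 and 12.98 CPM with P1-a2 and at 37.64 and 37.65 CPM with P2-a8. BxPC3 held 0.464 and 1.08 CPM in the controls, 9.76 and 11.6 CPM with P1-a2 and 12.6 and 14.2 CPM with P2-a8. AsPC-1 held 206 and 219.8 CPM with sgNC, 109 to 145.5 CPM with sgP1, 76.8 to 93.9 CPM with sgP2 and 3.19 to 13.6 CPM with sgDual, and in the fit by target only the fall with sgDual passed the threshold (-4.73 ± 0.39 as log2 with its SE, adjusted p = 6.3e-06). In Panc10.05 the isoform, the dose and the HNF4A level changed together and cannot be told apart. The 26 libraries held 26079388 to 50662077 counts each. All 5 epithelial markers (EPCAM, CDH1, KRT8, KRT18 and KRT19) were present in every group, with summed levels of 4672 to 18030 CPM. In Panc10.05 their sum moved with the isoforms, from 4672 and 4690 CPM in the controls to 6651 to 8494 CPM. In BxPC3 it went from 5700 and 6125 CPM to 7218 and 7262 CPM with P2-a8 and 8639 and 9084 CPM with P1-a2. In AsPC-1 it was 14300 and 14590 CPM with sgNC, 10180 to 11670 CPM with sgP2, 11260 to 15960 CPM with sgDual and 8297 to 18030 CPM with sgP1. The part of these markers in the results was not tested. The 5 leukocyte markers summed to 4.05 CPM at most and the 3 endothelial markers to 9.12 CPM at most, both in BxPC3. These are bulk libraries, in which fewer cells making a transcript and less transcript per cell cannot be told apart.

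Upstream sequences are shown for 3 members that moved in different ways: MMP7, which fell, MMP24, which rose, and MMP14, which went in opposite directions with the isoforms in 1 line. They come from the RefSeq promoter table on GRCh38.p14, which matched 5 of the 10 members, and run 5′ to 3′ on the gene's strand up to the first base of the GENCODE v29 gene. Capitals mark matches to the AP-1 motif TGANTCA, to the HNF4 motif CAAAGNNCA and to the TATA motif TATAAA on either strand. The 3 stretches are chr11:102530754-102530997 on the minus strand for MMP7, chr14:22836335-22836556 on the plus strand for MMP14 and chr20:35226440-35226653 on the plus strand for MMP24.
MMP7: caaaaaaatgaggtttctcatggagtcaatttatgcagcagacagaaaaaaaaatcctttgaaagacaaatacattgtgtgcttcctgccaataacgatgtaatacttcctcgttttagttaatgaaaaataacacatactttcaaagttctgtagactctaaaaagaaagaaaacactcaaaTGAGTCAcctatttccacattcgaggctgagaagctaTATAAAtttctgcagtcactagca
MMP14: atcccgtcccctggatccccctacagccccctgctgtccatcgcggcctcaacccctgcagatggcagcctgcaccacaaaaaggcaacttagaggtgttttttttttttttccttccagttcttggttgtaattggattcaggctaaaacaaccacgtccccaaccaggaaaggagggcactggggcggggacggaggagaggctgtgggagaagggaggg
MMP24: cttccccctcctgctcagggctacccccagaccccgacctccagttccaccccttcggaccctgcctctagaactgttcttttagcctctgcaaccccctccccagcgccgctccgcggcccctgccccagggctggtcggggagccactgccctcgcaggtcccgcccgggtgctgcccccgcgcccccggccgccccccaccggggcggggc
The MMP7 stretch held 1 AP-1 match, 67 to 61 bases before the RefSeq start, and 1 TATA match, 30 to 25 bases before it, and the matches did not overlap. Of 35116 promoter windows of 250 bases in the same table, 6.57% held the AP-1 motif, 10.7% the TATA motif and 4.44% the HNF4 motif. The ETS-type motif AGGAAG, found in 28.7% of windows and not capitalised here, had 2 matches for MMP7, 169 to 164 and 145 to 140 bases before the start, and none for MMP14 or MMP24. Over the 250 bases before the start, 33.6% of the MMP7 bases were G or C, against 56.8% for MMP14 and 77.6% for MMP24. Neither the MMP14 nor the MMP24 window held any of these motifs, which says only that these letters are not in this window.

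The lines differed in which members they made before any change to HNF4A. Levels can be compared between genes only per kilobase of exon, and the 3 tables were scaled separately, so the order is given within each line. In the BxPC3 controls TIMP1 led with a mean of 234.8 CPM per kilobase, followed by MMP14 with 173, MMP1 with 73.05, MMP28 with 48.0 and ADAM8 with 42.9. The AsPC-1 control guide had TIMP2 first with 171, then TIMP1 with 77.8, MMP7 with 69.7 and MMP28 with 14.9 CPM per kilobase. Panc10.05 controls held TIMP1 at 199 and TIMP2 at 95.8 CPM per kilobase, and the other 8 members each lay under 1 CPM per kilobase, the highest being MMP14 with 0.971. Too low to be tested in Panc10.05 were MMP7 (0 to 7 counts per library), MMP13 (0 to 1) and MMP28 (3 to 10), and MMP24 was too low in BxPC3 (0 to 11 counts).

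Changes were tested with edgeR's quasi-likelihood test, adjusted over all genes of a table, and "past the threshold" means an adjusted p under 0.05. In Panc10.05, 5 of the 7 members tested passed with P1-a2 against NC (2 higher, 3 lower), where 62.0% of all 17247 genes tested passed (31.5% higher, 30.5% lower). With P2-a8 against NC it was 6 of 7 (5 higher, 1 lower), against 46.2% of all genes (23.7% higher, 22.5% lower). Between the isoforms 4 of 7 passed, all lower with P1-a2, against 46.9% of all genes (22.2% higher, 24.7% lower). In BxPC3, 6 of 9 members passed with P1-a2 (2 higher, 4 lower), where 32.0% of all genes passed (17.1% higher, 14.9% lower). With P2-a8 it was 3 of 9, all lower, against 6.99% of all genes (4.3% higher, 2.69% lower). Between the isoforms it was 3 of 9 (1 higher and 2 lower with P1-a2), against 22.5% of all genes (11.6% higher, 10.8% lower). In AsPC-1, with 10 members tested, none passed with sgP1 against sgNC (all genes 0.265%, of which 0.1% higher and 0.165% lower; 4 members had an unadjusted p under 0.05, and DESeq2 called 2). With sgP2 against sgNC 2 members passed, 1 higher and 1 lower, against 3.42% of all genes (1.66% higher, 1.76% lower). With sgDual against sgNC 5 passed, 4 higher and 1 lower, against 35.6% of all genes (17.8% higher, 17.8% lower). Scaled by library totals alone, 47.9% of the sgP1 calls were higher in place of 37.8%, and 59.1% of the sgP2 calls in place of 48.5%. In BxPC3 the same scaling put 51.8% of the P2-a8 calls higher in place of 61.5%. Without sgNC replicate 1 or 2 the sgP2 calls over all genes fell to 63 and 57 and the sgP1 calls to 7 and 1, and without NC replicate 1 or 2 the BxPC3 P2-a8 calls fell to 653 and 495. The comparisons in a table that are made against a control share its 2 control libraries. Where groups are said below not to overlap, that describes their libraries only. With so few libraries per group it can arise without any difference, and its share over all genes is not given. The plots of library values show these levels for the induced lines and for AsPC-1.

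**Figure D1:**
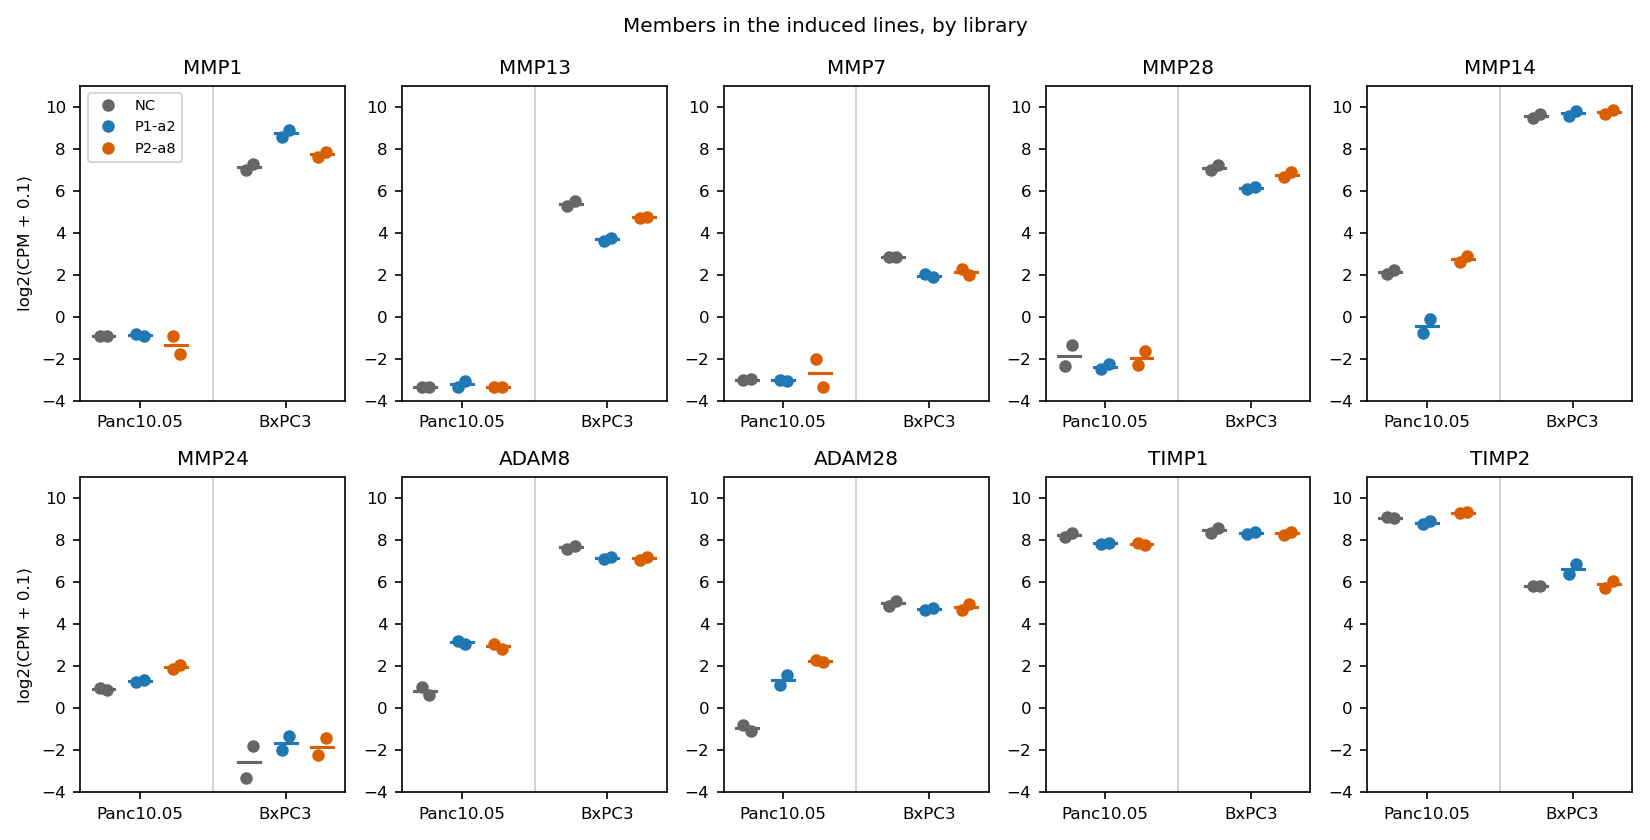
Level of each member on the vertical axis, as log2 of CPM plus 0.1, in every library of Panc10.05 (left of each panel) and BxPC3 (right), with 1 point per library, 2 per group, and a bar at the group mean of these log values. NC is grey, P1-a2 blue and P2-a8 orange. The blue MMP14 points in Panc10.05 lie below the other groups, and the grey ADAM8 and ADAM28 points lie below both isoforms in Panc10.05 but not in BxPC3.

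MMP1, the interstitial collagenase, lies at chr11:102789920-102798160 (minus strand, GRCh38, GENCODE v29; ENSG00000196611). In BxPC3 it stood at 129.6 and 158 CPM in the controls, 199 and 229 CPM with P2-a8 and 381 and 487 CPM with P1-a2. The 3 groups did not overlap and stood in that order. The change with P1-a2 was 1.59 ± 0.16 (log2, SE; adjusted p = 8.0e-04) and that with P2-a8 was 0.57 ± 0.16, which did not pass (adjusted p = 0.106). P1-a2 stood above P2-a8 by 1.02 ± 0.15 (adjusted p = 0.0070), a call lost without P2-a8 replicate 1 (adjusted p = 0.0687). Panc10.05 held 7 to 20 MMP1 counts per library in all groups, and neither isoform changed it past the threshold. MMP1 shares 150 exon bases with the opposite-strand pseudogene WTAPP1, which held 50 counts at most in any library.

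In AsPC-1 the MMP1 level differed between the guides of each target. It was 1.81 and 1.83 CPM with sgNC, 11.7 and 16.2 CPM with sgP2D, 4.47 and 4.52 CPM with sgP2G, 8.52 in both libraries with sgDual2, and 3.13 and 4.74 CPM with sgDual3. Both sgP2 guides and both sgDual guides lay above sgNC, each past the threshold in the fit by guide, from 1.117 ± 0.25 for sgDual3 (adjusted p = 0.0033) to 2.93 ± 0.23 for sgP2D (adjusted p = 7.7e-06). Without sgDual3 replicate 2 the sgDual3 value was 0.78 (adjusted p = 0.0572). In the fit by target, where guides of a target share a group, the same gene did not pass with sgP2 (2.33 ± 0.77, adjusted p = 0.131) or sgDual (1.77 ± 0.76, adjusted p = 0.0921). The sgP1 guides lay on either side of the control, sgP1E at 2.50 and 3.73 CPM and sgP1J at 0.817 and 0.872 CPM, and neither difference from sgNC passed.

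MMP13, collagenase-3, at chr11:102942995-102955734 (minus strand, ENSG00000137745), went the other way in BxPC3. It stood at 39.3 and 45.3 CPM in the controls, 25.85 and 27.4 CPM with P2-a8 and 12.1 and 13.5 CPM with P1-a2. These groups were also separate, in the reverse of the MMP1 order. MMP13 fell by 1.72 ± 0.10 with P1-a2 (log2, adjusted p = 3.8e-07) and by 0.67 ± 0.09 with P2-a8 (adjusted p = 0.0014), and stood lower with P1-a2 than with P2-a8 by 1.05 ± 0.10 on the log2 scale (adjusted p = 6.3e-05). In AsPC-1 MMP13 was near the limit of detection: the 2 sgNC libraries held 2 counts in all and the 4 sgDual libraries 36, a ratio of rates of 8.08 with an exact 95% interval of 2.08 to 69.3 that covers counting error only. The edgeR call for sgDual (adjusted p = 0.0353) was lost without sgNC replicate 1 (0.0646), without sgNC replicate 2 (0.217) and with DESeq2 (0.0514). In the fit by guide sgDual3 passed (3.15 ± 1.07, adjusted p = 0.0332) and sgDual2 did not (adjusted p = 0.108), and the sgDual3 call was lost without sgNC replicate 1 (0.0526), sgNC replicate 2 (0.164) or sgDual3 replicate 2 (0.248) and with DESeq2 (0.0701).

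MMP7, matrilysin, a small secreted protease of glandular epithelium at chr11:102520508-102530753 (minus strand, ENSG00000137673), fell in each line where it was made. AsPC-1 had 159 and 165 CPM with sgNC, 143 and 149.5 CPM with sgP1E, 120.3 and 129 CPM with sgP1J, 31.9 to 40.6 CPM over the 4 sgP2 libraries and 82.4 to 100.3 CPM over the 4 sgDual libraries. No library of any of these targets overlapped with another target, and the lowest level came with sgP2, not with sgDual. The fall was 2.12 ± 0.11 with sgP2 (log2, adjusted p = 4.9e-08) and 0.83 ± 0.11 with sgDual (adjusted p = 4.4e-05), and both passed in all 15 alternative fits. The value for sgP1 was -0.26 ± 0.11 (adjusted p = 0.494). MMP7 stood 1.29 ± 0.09 higher with sgDual than with sgP2 (log2, adjusted p = 7.6e-08), in a comparison that shares no library with sgNC. In the fit by guide sgP2D and sgP2G gave -2.18 ± 0.09 and -2.05 ± 0.09 against sgNC, and sgP1J gave -0.38 ± 0.09 (adjusted p = 0.0377), a call lost without any 1 of its 4 libraries (0.0793 to 0.186) and with library totals alone (0.0679).

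In BxPC3, where HNF4A was raised and not repressed, MMP7 stood at 7.16 and 7.21 CPM in the controls, 3.60 and 3.98 CPM with P1-a2 and 3.86 and 4.81 CPM with P2-a8. Both isoform groups lay below the controls and overlapped each other. The fall was 0.92 ± 0.16 with P1-a2 (adjusted p = 0.0012) and 0.73 ± 0.16 with P2-a8 (adjusted p = 0.0183). The second call was lost without P2-a8 replicate 2 (adjusted p = 0.126), without NC replicate 1 (0.0828) and without NC replicate 2 (0.101).

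MMP28, epilysin, a secreted enzyme of epithelia at chr17:35756249-35795707 (minus strand, ENSG00000271447), fell with P1-a2 in BxPC3. It was at 125.8 and 148 CPM in the controls, 102 and 118 CPM with P2-a8 and 68.0 and 73.8 CPM with P1-a2. The groups did not overlap. With P1-a2 the fall was 0.95 ± 0.09 (log2, adjusted p = 5.4e-05), with P2-a8 the value was -0.32 ± 0.09 (adjusted p = 0.0736), and P1-a2 lay below P2-a8 by 0.63 ± 0.09 on the log2 scale (adjusted p = 0.0015). AsPC-1 had 35.4 and 50.0 CPM with sgNC, 28.8 to 60.8 CPM with sgP1, 26.8 to 51.1 CPM with sgP2 and 57.4 to 69.6 CPM with sgDual. Only the comparison of sgDual with sgP2 passed, by 0.63 ± 0.22 (adjusted p = 0.0345). It was lost when any 1 of 5 libraries was left out: sgP2D replicate 1 (adjusted p = 0.0794), sgP2D replicate 2 (0.0624), sgDual2 replicate 2 (0.0509), sgDual3 replicate 1 (0.0707) or sgDual3 replicate 2 (0.0783). It was also lost with no filter on low counts (0.0965).

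**Figure D2:**
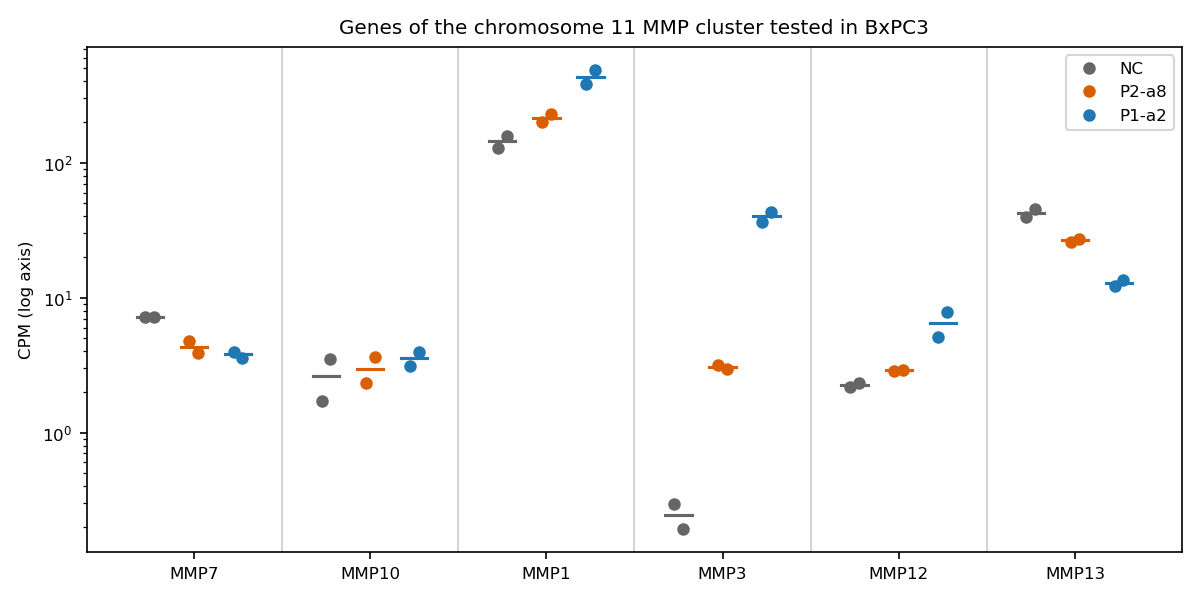
CPM on a log axis for the 6 genes of the chromosome 11 metalloproteinase cluster that were tested in BxPC3, in chromosome order, with 1 point per library, 2 per group, and a bar at the mean. NC is grey, P2-a8 orange and P1-a2 blue. MMP3 and MMP1 climb from NC over P2-a8 to P1-a2, while MMP13 steps down in the same order from 45.3 to 12.1 CPM.

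MMP1, MMP7 and MMP13 are part of a run of 9 metalloproteinase genes on chromosome 11, of which 6 were tested in BxPC3. With P1-a2, 3 of these 6 rose (MMP1, MMP3 and MMP12), 2 fell (MMP7 and MMP13) and 1 did not pass (MMP10). Over all genes 17.1% rose and 14.9% fell. MMP1, MMP7 and MMP13 were selected on measured values of these same libraries, so nothing about the cluster is read from this count. The largest rise was that of MMP3, stromelysin-1, a secreted protease that also activates other metalloproteinase precursors. It went from 0.191 and 0.298 CPM (7 and 8 counts) in the controls to 2.97 and 3.175 CPM with P2-a8 and 36.6 and 43.4 CPM with P1-a2. MMP3 changed by 7.38 ± 0.20 with P1-a2 (log2, adjusted p = 1.7e-09) and by 3.68 ± 0.26 with P2-a8 (adjusted p = 8.6e-06), and P1-a2 stood above P2-a8 by 3.70 ± 0.13 (adjusted p = 1.4e-07). MMP12, macrophage elastase, stood at 2.16 and 2.32 CPM in the controls and at 5.145 and 7.76 CPM with P1-a2 (1.53 ± 0.22, adjusted p = 2.9e-04), and its value with P2-a8 was 0.36 ± 0.23 (adjusted p = 0.436). MMP10, stromelysin-2, had overlapping libraries of 1.71 and 3.52 CPM in the controls and 3.11 and 3.97 CPM with P1-a2 (adjusted p = 0.3975). Some of these genes are also made by fibroblasts: the 7 fibroblast markers summed to 15.0 and 15.8 CPM in the BxPC3 controls, 19.95 and 20.8 CPM with P1-a2 and 20.03 and 21.2 CPM with P2-a8, and their part in the result was not tested. In Panc10.05 none of the 9 cluster genes reached 1 CPM in any library, and in AsPC-1 only MMP1 and MMP7 did.

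MMP14 is the membrane-anchored metalloproteinase that cuts collagen at the cell surface and activates the MMP2 precursor, and it lies at chr14:22836557-22849027 (plus strand, ENSG00000157227). It gave the widest split between the isoforms in Panc10.05, with 4.04 and 4.64 CPM in the controls, 0.488 and 0.826 CPM with P1-a2 and 6.07 and 7.27 CPM with P2-a8. In counts these were 168 and 160, 19 and 38, and 284 and 258. The 3 groups were separate, with the controls in the middle. MMP14 fell by 2.69 ± 0.22 with P1-a2 (log2, adjusted p = 5.0e-14) and stood 0.62 ± 0.16 higher with P2-a8 (adjusted p = 0.0012). P1-a2 lay below P2-a8 by 3.30 ± 0.21 on the log2 scale (adjusted p = 7.0e-17), and all 3 calls held in each of 10 alternative fits. In BxPC3, where MMP14 was abundant, the libraries of the 3 groups overlapped between 723 and 920.3 CPM, and neither isoform changed it past the threshold (0.12 ± 0.10 with P1-a2, adjusted p = 0.42; 0.16 ± 0.10 with P2-a8, adjusted p = 0.446).

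AsPC-1 had 46.2 and 56.5 MMP14 CPM with sgNC, 57.1 and 66.4 CPM with sgP1E, 32.3 and 40.7 CPM with sgP1J, 52.9 to 62.1 CPM with sgP2 and 35.1 to 41.7 CPM with sgDual. The 4 sgDual libraries all lay below the 4 sgP2 libraries. That difference passed, at -0.58 ± 0.18 (log2, adjusted p = 0.0166), and was lost with no filter on low counts (0.0724). The 2 sgP1 guides again parted, sgP1E lying 0.76 ± 0.12 above sgP1J (adjusted p = 0.0012). Against sgNC the sgDual guides gave -0.37 ± 0.12 and -0.44 ± 0.12 (adjusted p = 0.034 and 0.0132). The sgDual2 call was lost without sgDual2 replicate 1 (0.202), without sgDual2 replicate 2 (0.0689) and without sgNC replicate 2 (0.297), and the sgDual3 call without sgDual3 replicate 1 (0.114) and without sgNC replicate 2 (0.135).

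MMP24, a membrane-type metalloproteinase best known from neural tissue, lies at chr20:35226654-35277000 (plus strand, ENSG00000125966). In AsPC-1 it stood at 2.44 and 3.04 CPM with sgNC, 17.4 and 21.5 CPM with sgP1E, 6.91 and 7.18 CPM with sgP1J, 10.0 and 11.2 CPM with sgP2D, 18.4 and 18.8 CPM with sgP2G, 8.50 and 9.91 CPM with sgDual2 and 8.56 and 9.48 CPM with sgDual3. Every one of the 12 libraries with a targeting guide lay above both control libraries. Each guide passed against sgNC, from 1.3605 ± 0.16 for sgP1J (log2, adjusted p = 2.6e-04) to 2.82 ± 0.15 for sgP1E (adjusted p = 3.5e-07), in all 9 alternative fits. The sgDual libraries, which had the least HNF4A, had less MMP24 than the libraries of sgP1E and sgP2G. Guides of 1 target differed, sgP1E lying 1.46 ± 0.13 above sgP1J (adjusted p = 1.0e-05) and sgP2D lying 0.81 ± 0.13 below sgP2G on the log2 scale (adjusted p = 0.0042). The last call was lost without sgP2D replicate 2 (adjusted p = 0.0668).

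In the fit by target MMP24 stood 2.41 ± 0.51 above sgNC with sgP2 (adjusted p = 0.0252) and 1.73 ± 0.50 with sgDual (adjusted p = 0.0175). The sgP2 call was lost without sgNC replicate 1 (0.196), sgNC replicate 2 (0.232) or sgP2G replicate 1 (0.0511), and the sgDual call without sgNC replicate 1 (0.099) or sgNC replicate 2 (0.1165). With no filter on low counts both were lost (0.0647 and 0.0567). In Panc10.05 the controls had 1.71 and 1.87 CPM, P1-a2 2.31 and 2.44 CPM and P2-a8 3.53 and 4.03 CPM. The rise with P2-a8 passed (1.065 ± 0.19, adjusted p = 1.3e-05), the value with P1-a2 did not (0.40 ± 0.20, adjusted p = 0.0817), and P2-a8 stood above P1-a2 (P1-a2 minus P2-a8, -0.66 ± 0.18, adjusted p = 0.0025). MMP24 shares 799 exon bases with the opposite-strand gene MMP24OS, and whether the counting used strand is not given in the sources used here. MMP24OS was the more abundant, with 59.0 to 88.6 CPM in AsPC-1 and 50.8 to 90.8 CPM in Panc10.05. MMP24 had 2.44 to 21.5 CPM and 1.71 to 4.03 CPM there. MMP24OS had log2 values of 0.02 to 0.48 over the 6 guides, of which only sgDual2 passed (0.48 ± 0.11, adjusted p = 0.0044). In Panc10.05 its value was 0.00 ± 0.07 with P2-a8 (adjusted p = 0.9675) and it fell by 0.75 ± 0.07 with P1-a2 (adjusted p = 1.2e-12).

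**Figure D3:**
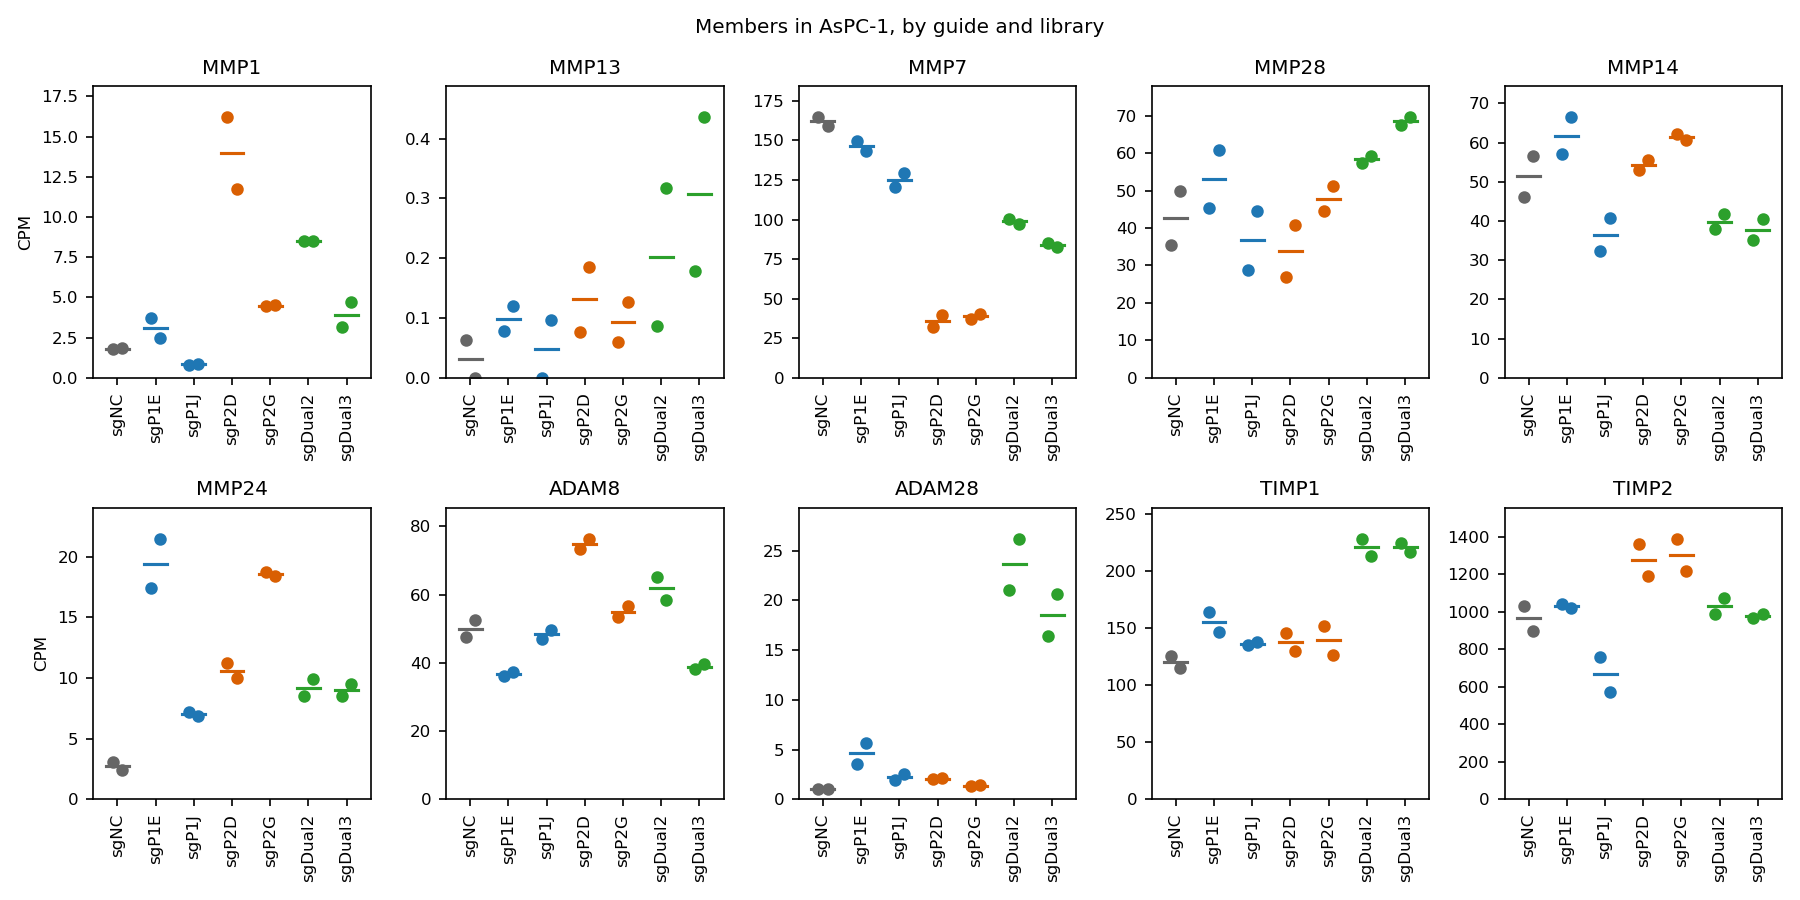
CPM of each member in the 14 AsPC-1 libraries, on linear axes from 0 that differ between panels, with 1 point per library, 2 per guide, and a bar at the mean. The sgP2 guides have the lowest MMP7, sgNC has the lowest MMP24, the sgDual guides stand apart for ADAM28 and TIMP1, and the 2 guides of each target separate for MMP1 and ADAM8.

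ADAM8, a sheddase known from leukocytes and from invasive pancreatic tumours, lies at chr10:133262403-133276868 (minus strand, ENSG00000151651). It rose in Panc10.05 with both isoforms, from 1.48 and 1.92 CPM in the controls to 8.35 and 9.12 CPM with P1-a2 and 7.02 and 8.33 CPM with P2-a8. Both isoform groups were well clear of the controls. The changes were 2.34 ± 0.16 (log2, adjusted p = 1.7e-16) and 2.17 ± 0.16 (adjusted p = 1.2e-14), and the difference between the isoforms was 0.18 ± 0.13 (adjusted p = 0.265). In BxPC3 the direction was opposite: 194 and 217 CPM in the controls, 138 and 147 CPM with P1-a2 and 135 and 149.8 CPM with P2-a8. ADAM8 fell by 0.53 ± 0.07 with each isoform there (adjusted p = 2.5e-04 and 0.0012).

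In AsPC-1 ADAM8 differed between the guides of each target. It was at 47.5 and 52.5 CPM with sgNC, 36.2 and 37.3 CPM with sgP1E, 47.1 and 49.6 CPM with sgP1J, 73.5 and 76.4 CPM with sgP2D, 53.5 and 56.5 CPM with sgP2G, 58.3 and 65.3 CPM with sgDual2 and 38.25 and 39.6 CPM with sgDual3. The 4 sgP2 libraries lay above all sgNC and sgP1 libraries, and in the fit by target sgP2 against sgP1 gave 0.61 ± 0.18, which did not pass (adjusted p = 0.0856). The 2 sgDual guides lay on opposite sides of the control. Their difference was 0.67 ± 0.08 (log2, sgDual2 above sgDual3, adjusted p = 5.2e-04), with 0.31 ± 0.08 (adjusted p = 0.0080) and -0.36 ± 0.08 (adjusted p = 0.0032) against sgNC. The sgDual2 call was lost without sgDual2 replicate 1 (0.0904) or sgNC replicate 1 (0.0939). Taken as 1 group, sgDual gave 0.01 ± 0.23 against sgNC. The sgP1 guides differed by -0.40 ± 0.08 (sgP1E minus sgP1J, adjusted p = 0.0044) and the sgP2 guides by 0.45 ± 0.08 (sgP2D minus sgP2G, adjusted p = 0.0084). The sgP2 difference was lost without sgP2D replicate 2 (0.0839), sgP2G replicate 1 (0.1185) or sgP2G replicate 2 (0.0519).

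ADAM28, a metalloprotease with membrane-bound and secreted forms whose known substrates include an insulin-like growth factor binding protein, lies on chromosome 8 (ENSG00000042980). In AsPC-1 it stood at 1.03 and 1.08 CPM with sgNC and at 16.4 to 26.2 CPM over the 4 sgDual libraries. With sgP1E it was 3.59 and 5.66 CPM, with sgP1J 1.985 and 2.55 CPM, with sgP2D 2.09 and 2.10 CPM and with sgP2G 1.38 and 1.40 CPM. The sgDual libraries were separate from all others. ADAM28 rose by 4.32 ± 0.41 with sgDual against sgNC (log2, adjusted p = 6.3e-06), and stood above sgP1 by 2.61 ± 0.26 (adjusted p = 8.8e-06) and above sgP2 by 3.60 ± 0.29 (adjusted p = 5.5e-07). These 3 calls held in every alternative fit. With sgP1 the value was 1.71 ± 0.39 (adjusted p = 0.103) in the fit by target. In the fit by guide sgP1E passed (2.11 ± 0.26, adjusted p = 2.0e-04) and sgP1J did not (1.10 ± 0.28, adjusted p = 0.0544), and sgP1E lay above sgP1J by 1.01 ± 0.22 (adjusted p = 0.0090), a call lost without sgP1J replicate 1 (0.0801) or sgP1E replicate 2 (0.0805).

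In Panc10.05 ADAM28 rose with both isoforms, from 0.377 and 0.48 CPM in the controls (13 and 20 counts) to 2.08 and 2.94 CPM with P1-a2 and 4.56 and 4.85 CPM with P2-a8. The 3 groups did not overlap. The rises were 2.54 ± 0.27 (log2, adjusted p = 8.7e-11) and 3.44 ± 0.25 (adjusted p = 5.3e-15), and P2-a8 stood above P1-a2 (P1-a2 minus P2-a8, -0.90 ± 0.18, adjusted p = 7.9e-05). In BxPC3, with 29.75 and 34.6 CPM in the controls, 25.7 and 27.1 CPM with P1-a2 and 25.8 and 31.8 CPM with P2-a8, neither change passed (adjusted p = 0.0683 and 0.459). ADAM28 thus stood higher than control in Panc10.05 with added HNF4A and in AsPC-1 with repressed HNF4A.

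**Figure D4:**
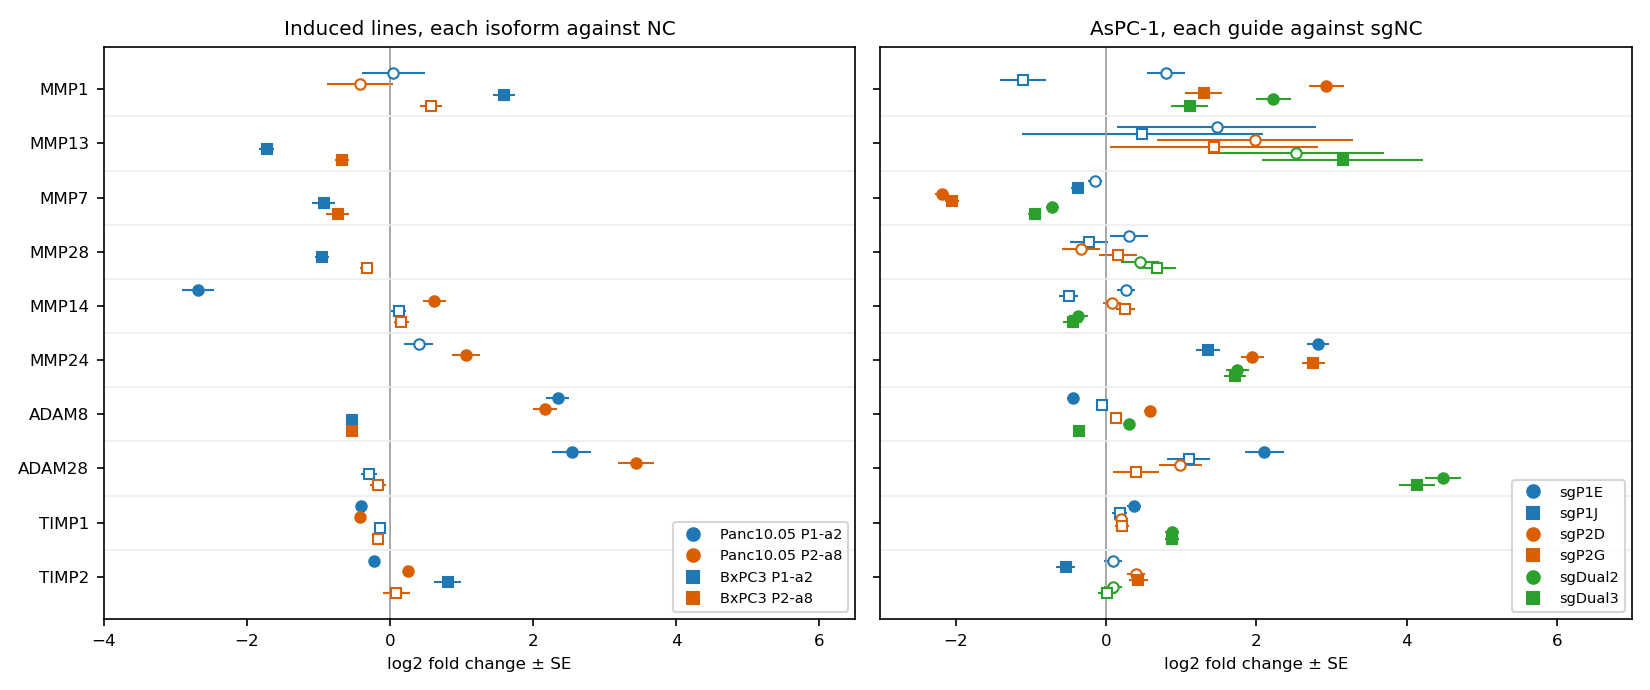
Log2 fold change of each member with its SE on the horizontal axis, left for each isoform against NC in Panc10.05 (circles) and BxPC3 (squares), right for each AsPC-1 guide against sgNC, with 2 libraries per group. Filled symbols have an adjusted p under 0.05 and open symbols do not, and a member that was not tested has no symbol. MMP24 lies to the right with all 6 guides, ADAM28 reaches 4.48 with sgDual2, and MMP14 with P1-a2 in Panc10.05 is at -2.69.

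TIMP1, a secreted inhibitor of most metalloproteinases that also binds cell-surface CD63, lies at chrX:47582313-47586789 (plus strand, ENSG00000102265). In AsPC-1 it rose with sgDual, from 114.5 and 125 CPM with sgNC to 213 to 228 CPM over the 4 sgDual libraries. With sgP1 it was 135 to 164 CPM and with sgP2 126 to 152 CPM, so the sgDual libraries were separate from all others. The rise was 0.88 ± 0.09 (log2, adjusted p = 9.9e-06), and the 2 guides gave the same value of 0.88. sgDual also stood above sgP1 by 0.60 ± 0.07 (adjusted p = 3.0e-05) and above sgP2 by 0.67 ± 0.07 (adjusted p = 5.1e-06). sgP1E gave 0.37 ± 0.10 against sgNC (adjusted p = 0.029), a call lost without sgP1E replicate 1 (0.167), sgNC replicate 1 (0.0792) or sgNC replicate 2 (0.179).

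Lumican (LUM), a matrix proteoglycan listed here as a fibroblast marker, moved with TIMP1 and ADAM28: it was at 164 and 178 CPM with sgNC and at 278 to 299 CPM with sgDual (0.74 ± 0.09, adjusted p = 2.9e-05). The 7 fibroblast markers summed to 165 and 179 CPM with sgNC, at most 200 CPM with sgP1, 131.8 to 168 CPM with sgP2 and 279.5 to 301.3 CPM with sgDual. Each of the other 6 markers stayed at or below 1.07 CPM in all 14 libraries, PDGFRA at 0.0597 CPM at most. Of the 7 markers 6 were tested, LUM among them. With sgDual 2 of these passed the threshold, both higher and 1 of them LUM, where 35.6% of all genes passed and 17.8% were higher. Their part in the rise of TIMP1 and ADAM28 was not tested.

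Panc10.05 moved TIMP1 down with both isoforms, from 291 and 323.5 CPM to 227 and 237 CPM with P1-a2 and 221 and 236 CPM with P2-a8. The isoform groups overlapped each other and lay below the controls. TIMP1 fell by 0.41 ± 0.06 with P1-a2 (log2, adjusted p = 2.4e-07) and by 0.42 ± 0.06 with P2-a8 (adjusted p = 2.0e-07). In BxPC3 the libraries ranged from 308 to 391 CPM, groups overlapped, and neither change passed (adjusted p = 0.195 and 0.268).

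TIMP2, which inhibits metalloproteinases and also helps MMP14 to activate the MMP2 precursor, lies at chr17:78852977-78925387 (minus strand, ENSG00000035862). The isoforms parted it in Panc10.05: 532 and 547 CPM in the controls, 436 and 487 CPM with P1-a2 and 639 and 647 CPM with P2-a8. As for MMP14, the controls lay between the isoforms. The changes were small, -0.2245 ± 0.06 with P1-a2 (log2, adjusted p = 0.0013) and 0.25 ± 0.06 with P2-a8 (adjusted p = 5.5e-04), and P1-a2 lay 0.48 ± 0.06 below P2-a8 on the log2 scale (adjusted p = 1.2e-08). Without P1-a2 replicate 1 the first was -0.14 (adjusted p = 0.109). In BxPC3, with 57.3 and 57.4 CPM in the controls, 83.7 and 117 CPM with P1-a2 and 54.1 and 68.2 CPM with P2-a8, TIMP2 rose with P1-a2 (0.81 ± 0.19, adjusted p = 0.0293), and the call was lost without NC replicate 1 (0.171) or NC replicate 2 (0.165) and with no filter on low counts (0.137).

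In AsPC-1 TIMP2 had 899 and 1031 CPM with sgNC, 1018 and 1038 CPM with sgP1E, 571 and 761 CPM with sgP1J, 1191 to 1388 CPM with sgP2 and 965 to 1071 CPM with sgDual. All sgP2 libraries lay above all others and both sgP1J libraries lay below all others. sgP2 stood above sgP1 by 0.61 ± 0.15 (log2, adjusted p = 0.0325), and sgP1E above sgP1J by 0.63 ± 0.12 (adjusted p = 0.0040). The first call was lost without sgP1J replicate 1 (0.0804), sgP2D replicate 1 (0.0972), sgP2G replicate 1 (0.0899) or sgP2G replicate 2 (0.0502), with no filter on low counts (0.124) and in a fit of the groups compared alone (0.132). Against sgNC, sgP1J gave -0.54 ± 0.12 (adjusted p = 0.0308) and sgP2G 0.43 ± 0.12 (adjusted p = 0.0458). The sgP1J call was lost without sgNC replicate 1 (0.228), sgNC replicate 2 (0.0609) or sgP1J replicate 2 (0.193), and the sgP2G call without any 1 of its 4 libraries (0.0694 to 0.323). TIMP2 shares 198 exon bases with CEP295NL on its own strand, which held 140 counts at most in any library, and 367 with the opposite-strand gene AC022966.1.

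Among guides of 1 target, 6 of 10 members passed for sgP1E against sgP1J (MMP1, MMP14, MMP24, ADAM28 and TIMP2 higher and ADAM8 lower with sgP1E), where 14.5% of all 16992 genes passed (7.82% higher, 6.7% lower). For sgP2D against sgP2G 3 of 10 passed (MMP1 and ADAM8 higher, MMP24 lower), where 1.69% of all genes passed (0.647% higher, 1.05% lower), and for sgDual2 against sgDual3 2 of 10 (MMP1 and ADAM8, both higher), where 0.883% passed (0.418% higher, 0.465% lower). MMP1 and ADAM8 were thus past the threshold in each of the 3 guide pairs. MMP1 lay 1.90 ± 0.28 higher with sgP1E than with sgP1J (log2, adjusted p = 5.6e-04), 1.63 ± 0.21 higher with sgP2D than with sgP2G (adjusted p = 7.8e-04) and 1.11 ± 0.21 higher with sgDual2 than with sgDual3 (adjusted p = 0.0237). The last was lost without sgDual2 replicate 1 (0.1555), sgDual2 replicate 2 (0.1685) or sgDual3 replicate 1 (0.3655). Against sgNC, sgP1E had 4 of 10 members past the threshold (3 higher, 1 lower), where 8.62% of all genes passed (4.81% higher, 3.8% lower). The count for sgP1J was 3 (1 higher, 2 lower), against 3.04% of all genes (1.26% higher, 1.78% lower). It was 4 for sgP2D (3 higher, 1 lower), against 8.52% (4.46% higher, 4.06% lower), and 4 for sgP2G (3 higher, 1 lower), against 8.16% (4.31% higher, 3.85% lower). It was 7 for sgDual2 (5 higher, 2 lower), against 36.9% (18.7% higher, 18.2% lower), and 8 for sgDual3 (5 higher, 3 lower), against 37.2% (18.8% higher, 18.4% lower). HNF4A did not separate the guides of any target past the threshold (adjusted p = 0.627, 0.97 and 0.972).

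Between targets, sgP2 against sgP1 had 2 of 10 members past the threshold (TIMP2 higher, MMP7 lower), where 4.3% of all genes passed (2.17% higher, 2.13% lower). For sgDual against sgP1 it was 5 (MMP1, MMP13, ADAM28 and TIMP1 higher, MMP7 lower), against 38.3% of all genes (18.6% higher, 19.7% lower). For sgDual against sgP2 it was also 5 (MMP7, MMP28, ADAM28 and TIMP1 higher, MMP14 lower), against 46.4% of all genes (22.8% higher, 23.5% lower). The calls for MMP7, ADAM28 and TIMP1 in these comparisons held in all 19 alternative fits. MMP7 was lower with sgP2 than with sgP1 by 1.86 ± 0.09 on the log2 scale (adjusted p = 4.7e-08) and lower with sgDual than with sgP1 by 0.57 ± 0.09 (adjusted p = 1.9e-04). MMP1 and MMP13 passed against sgP1 with overlapping libraries, at adjusted p = 0.0444 and 0.037. The MMP1 call was lost when any 1 of 6 libraries was left out: sgP1J replicate 1 (0.108), sgP1J replicate 2 (0.0931), sgP1E replicate 2 (0.0652), sgDual2 replicate 1 (0.0983), sgDual2 replicate 2 (0.104) or sgDual3 replicate 2 (0.0563). It was also lost with the replicate block (0.0582) and with no filter on low counts (0.114). The MMP13 call was lost without sgP1E replicate 1 (0.0695) or sgP1J replicate 1 (0.0797) and with DESeq2 (0.0544).

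Whether an isoform acted alike in Panc10.05 and BxPC3 was tested as the difference of the 2 changes in a joint fit of the 12 libraries. The line, dose, control construct and the number that opens the library titles differ together here and cannot be told apart. All 10 members passed the filter of this fit, though MMP7, MMP13 and MMP28 were too low to be tested in Panc10.05, and MMP24 in BxPC3. For those genes a missing call does not show that the lines responded alike. For P1-a2 against NC 4 of 10 members differed, 2 higher and 2 lower in BxPC3, against 36.4% of all 19372 genes (20.1% higher, 16.3% lower). With P2-a8 against its control 2 of 10 differed, both lower, against 23.5% of all genes (11.9% higher, 11.5% lower). For P1-a2 against P2-a8 3 of 10 differed, all higher, against 22.3% of all genes (13.5% higher, 8.81% lower). The difference, BxPC3 minus Panc10.05, was -2.88 ± 0.16 (log2, adjusted p = 1.8e-11) for ADAM8 with P1-a2 and -2.70 ± 0.17 (adjusted p = 2.0e-10) with P2-a8. For ADAM28 these differences were -2.84 ± 0.29 (adjusted p = 5.8e-08) and -3.60 ± 0.27 (adjusted p = 2.0e-09). MMP14 differed by 2.79 ± 0.30 for P1-a2 against NC (adjusted p = 2.1e-05) and by 3.25 ± 0.28 for P1-a2 against P2-a8 (adjusted p = 1.2e-05). TIMP2 differed by 1.02 ± 0.23 (adjusted p = 0.0091) and 1.19 ± 0.23 (adjusted p = 0.0080) in the same comparisons. ADAM28 differed by 0.76 ± 0.20 for P1-a2 against P2-a8 (adjusted p = 0.0086), a call lost without Panc10.05 P1-a2 replicate 1 (0.0758). Without BxPC3 NC replicate 2 the count for P1-a2 against NC was 7 of 10.

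The wider families were taken whole, as the other measured genes of each, and their counts are given here for some lines and comparisons only. Of 17 other matrix metalloproteinases, 6 were tested in Panc10.05. Among the 17 only MMP15 reached 1 CPM there (34.0 to 55.6 CPM), and each of the others held 28 counts at most in any library. The Panc10.05 medians therefore rest largely on genes with few counts. With P1-a2 none of the 6 rose and 3 fell (median log2 -0.88, all genes 0.02), where 31.5% of all genes rose and 30.5% fell. With P2-a8 none rose and 1 fell (median -0.22, all genes 0.00), where 23.7% of all genes rose and 22.5% fell. In BxPC3 8 were tested. With P1-a2 4 of them rose and none fell past the threshold (median 0.39, all genes -0.01), where 17.1% of all genes rose and 14.9% fell. MMP9, which did not fall past the threshold, ranged widely over the BxPC3 libraries, from 5.18 to 36.1 CPM. With P2-a8 1 rose, where 4.3% of all genes rose. Of 19 other ADAM genes, 8 were tested in Panc10.05. For P1-a2 4 were higher and 2 lower (all genes 31.5% and 30.5%), and for P2-a8 4 were higher and none lower (all genes 23.7% and 22.5%). ADAM19, a membrane protease of the same family as ADAM8, rose with both isoforms in Panc10.05, from 0.384 and 0.406 CPM in the controls to 9.96 and 10.13 CPM with P1-a2 (4.66 ± 0.20, adjusted p = 2.8e-23) and 7.41 and 8.14 CPM with P2-a8 (4.30 ± 0.21, adjusted p = 7.4e-21). It also rose in BxPC3, from 4.46 and 6.06 CPM to 20.95 and 30.2 CPM with P1-a2 (2.27 ± 0.20, adjusted p = 4.6e-05) and 11.7 and 12.6 CPM with P2-a8 (1.19 ± 0.21, adjusted p = 0.0099), and fell with sgDual in AsPC-1, from 35.35 and 45.0 CPM to 19.9 to 25.1 CPM (-0.83 ± 0.30, adjusted p = 0.0452). The P2-a8 call in BxPC3 was lost without P2-a8 replicate 1 (0.0511), P2-a8 replicate 2 (0.0676) or NC replicate 1 (0.0563), and the sgDual call without any 1 of its 6 libraries (0.0601 to 0.2997).

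Other inhibitors and activators moved too. In Panc10.05 SERPINE2, a secreted inhibitor of thrombin and plasminogen activators, rose from 0.377 and 0.648 CPM to 12.8 and 14.9 CPM with P1-a2 (4.71 ± 0.21, adjusted p = 8.2e-20) and to 5.97 and 8.31 CPM with P2-a8 (3.77 ± 0.22, adjusted p = 1.3e-15). PCSK6, a proprotein convertase able to process metalloproteinase precursors, had 4 counts in the 2 control libraries together and 180 with P1-a2, a ratio of rates of 40.3 with an exact 95% interval of 15.5 to 150.0. With P2-a8 it had 70 counts, a ratio of 16.2 with an interval of 6.05 to 61.1. Of the 9 plasminogen activation genes 7 were tested in Panc10.05, with 3 higher and 4 lower for P1-a2 (all genes 31.5% and 30.5%). ADAMTS6, of the ADAMTS family, fell from 18.1 to 6.37 CPM with P1-a2 (-1.52 ± 0.11, adjusted p = 3.2e-15) and to 11.9 CPM with P2-a8 (-0.61 ± 0.11, adjusted p = 7.1e-06). In AsPC-1 6 of the plasminogen activation genes were tested, and with sgP2 3 rose and none fell (all genes 1.66% and 1.76%), including PLAU, the urokinase gene, from 46.8 and 49.2 CPM with sgNC to 95.7 to 174 CPM (1.47 ± 0.35, adjusted p = 0.0445) and PLAT, tissue plasminogen activator, from 1161 and 1465 CPM to 2200 to 2626 CPM (0.90 ± 0.21, adjusted p = 0.0317). The PLAU call was lost without sgP2D replicate 1 (0.0771), sgP2G replicate 1 (0.0896), sgP2G replicate 2 (0.0760) or either sgNC library (0.271 and 0.285), and the PLAT call without sgP2G replicate 1 (0.0594), sgP2D replicate 2 (0.0594), sgP2G replicate 2 (0.0628) or either sgNC library (0.306 and 0.136). With sgDual PLAT stood at 3630 to 4561 CPM (1.64 ± 0.21, adjusted p = 8.2e-05). TIMP4, another inhibitor of the TIMP family, fell from a mean of 12.2 to 7.37 CPM with sgP2 (-0.72 ± 0.14, adjusted p = 0.0128), and PCSK7 fell from 98.9 to 71.5 CPM (-0.47 ± 0.10, adjusted p = 0.023). The TIMP4 call was lost without either sgNC library (0.153 and 0.101), and the PCSK7 call without either sgNC library (0.289 and 0.0794) or without sgP2D replicate 1 (0.0588). In the ADAMTS family, secreted relatives of the ADAMs, 3 of 7 genes tested rose with sgDual and none fell (all genes 17.8% and 17.8%), among them ADAMTS7 (2.72 ± 0.68, adjusted p = 0.0068) and ADAMTS14 (2.02 ± 0.53, adjusted p = 0.0086), both lost without either sgNC library (0.0718 and 0.0579, 0.0911 and 0.0562).

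AP-1, ETS and RUNX factors are known regulators of metalloproteinase promoters, and all 15 of those listed were tested for change in each line. The part of these factors in the changes of the members, MMP13 included, was not tested. In Panc10.05 8 rose and 4 fell with P1-a2 (all genes 31.5% and 30.5%), and 8 rose and 5 fell with P2-a8 (all genes 23.7% and 22.5%). ETV1 fell from a mean of 24.5 to 5.58 CPM with P1-a2 (-2.14 ± 0.10, adjusted p = 1.2e-21) and to 19.02 CPM with P2-a8 (-0.37 ± 0.09, adjusted p = 7.3e-04). FOSL1, an AP-1 subunit, fell from 447.6 to 243.5 CPM with P1-a2 (-0.88 ± 0.06, adjusted p = 2.6e-16) and to 271 CPM with P2-a8 (-0.72 ± 0.06, adjusted p = 3.2e-13). In BxPC3 none rose and 7 fell with P1-a2 (all genes 17.1% and 14.9%), and none rose and 5 fell with P2-a8 (all genes 4.3% and 2.69%). RUNX2, a known activator of MMP13, fell there from 11.8 to 5.68 CPM with P1-a2 (-1.06 ± 0.15, adjusted p = 3.2e-04) and to 6.9 CPM with P2-a8 (-0.78 ± 0.15, adjusted p = 0.0093), the latter lost without NC replicate 2 (0.12). ELF3, an epithelial ETS factor, fell from 93.8 to 52.1 CPM with P1-a2 (-0.85 ± 0.15, adjusted p = 0.0063), a call lost without NC replicate 1 (0.0534). FOSL1 fell from 109.6 to 66.2 CPM with P2-a8 there (-0.73 ± 0.10, adjusted p = 0.0033). In AsPC-1 5 rose and 2 fell with sgDual (all genes 17.8% and 17.8%), and 1 rose with sgP2 (all genes 1.66%). ETS1 fell with sgDual from 92.3 to 56.3 CPM (-0.71 ± 0.19, adjusted p = 0.0112), a call lost without sgNC replicate 1 (0.154).

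Likeness of pattern was measured as Pearson's r over 13 group means of log2 CPM, centred within each line, among 11595 genes. It is a description over points that share libraries. The genes nearest to ADAM28 were SOX4 (r = 0.99), POMT1 (0.97) and KDM5B (0.96), and those near to TIMP1 included ZBTB4 (0.97) and ZSWIM4 (0.96). MMP14 was most like CEACAM1 (0.96), TMED2 (0.94) and KIF2A (0.92). ADAM8 was nearest to CA2 (0.93), FAM110C (0.92) and ZBTB18 (0.92), and TIMP2 to MACF1 (0.92), YIPF1 (0.92) and LRRFIP1P1 (0.91).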

How the data were processed

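Poly(A) RNA-seq libraries of 3 pancreatic cancer lines, made with a directional kit per the labels' protocols, were read as 3 tables of gene counts, which the authors deposited as whole, unnormalised read counts per Ensembl gene. Per the submitters' processing notes the tools were cutadapt 1.16, STAR 2.7.9a, featureCounts 1.6.3 and DESeq2 1.36.0 with the build GRCh38. The strand setting and annotation release of the counting are not given in the sources used here. Symbols matched 99.88%, 99.88% and 99.91% of identifiers in the Panc10.05, BxPC3 and AsPC-1 tables.

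Groups came from the sample labels. Each table was tested separately on the deposited counts with edgeR 4.0.16 (R 4.3.3): low genes were removed by filterByExpr, libraries were scaled by TMM, and the robust quasi-likelihood test was adjusted by Benjamini-Hochberg over all genes tested. CPM values carry the TMM scaling. AsPC-1 was fitted by target and, separately, by guide, and the difference between lines in a joint fit of the 12 induced libraries. SEs were derived from the F statistic. The alternatives were DESeq2 1.42.0, its size factors within edgeR, library totals alone, no filter, only the groups compared, a replicate block, groups by guide, and each library or guide left out. The fit was also run on simulated counts for a comparison of each line, with few genes changed. That run does not show how the fit behaves where many genes change, and no result rests on it. Libraries held 34618745 to 46827673 counts (Panc10.05), 26369154 to 37483772 (BxPC3) and 26079388 to 50662077 (AsPC-1). Replicates differed by more than sampling noise in all 13 pairs (chi-square per degree of freedom 5.38 to 25.2). Intervals of count ratios are exact and cover counting error only.

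The members and all gene lists were chosen with earlier results of these data known. All members are named. Of the other listed genes past the threshold at a mean of at least 1 CPM, up to 2 that rose most and up to 2 that fell most are named per comparison with a control, and MMP10, MMP12, LUM and further values of the named genes were added after their values were seen. Some genes that these rules select are not reported here. Likeness used log2 CPM with a prior count of 2.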

Additional observations from a re-analysis of the deposited data

Results flagged for a closer look

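In all, 9 member results differed between Panc10.05 and BxPC3 by a test of the difference itself. This was the interaction contrast of edgeR's quasi-likelihood test in the joint fit of 12 libraries. They were 4 of 10 members for P1-a2 against NC, 2 of 10 for P2-a8 against NC and 3 of 10 for P1-a2 against P2-a8. Of all 19372 genes, 36.4%, 23.5% and 22.3% differed in these comparisons, so the member counts lie near the shares of all genes. Values are the BxPC3 log2 change minus the Panc10.05 log2 change.

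For P1-a2 against NC, MMP14 differed by 2.79 (fell in Panc10.05, 0.12 ± 0.10 in BxPC3), ADAM8 by -2.88 (rose in Panc10.05, fell in BxPC3), ADAM28 by -2.84 (rose in Panc10.05, -0.29 ± 0.11 in BxPC3) and TIMP2 by 1.02 (fell in Panc10.05, rose in BxPC3). For P2-a8 against NC, ADAM8 differed by -2.70 and ADAM28 by -3.60. For P1-a2 against P2-a8, MMP14 differed by 3.25, ADAM28 by 0.76 and TIMP2 by 1.19. Adjusted p ranged from 1.8e-11 for ADAM8 with P1-a2 to 0.0091 for TIMP2 with P1-a2.

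In each line the ADAM8 libraries of both isoforms lay apart from the controls, on opposite sides of them, from 1.48 and 1.92 CPM to 7.02 to 9.12 CPM in Panc10.05 and from 194 and 217 CPM to 135 to 149.8 CPM in BxPC3. Line, dose, control construct and the number that opens the library titles change together and cannot be told apart. For the 10 members in the 3 AsPC-1 targets with 4 libraries each, none of 30 sets of values held a library flagged as far from the others. Each set joined 2 guides with 2 libraries each. Where the guides lay apart, as for MMP1 and ADAM8, the check could hardly flag a library, so it says little there. Groups of 2 could not be checked.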

How the results depend on the processing

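Of 1080 alternative values of the 96 member changes past the threshold, 986 stayed past it, 94 (of 26 changes) did not, and none changed sign. Of 1593 values of the 132 other changes, 141 passed and 94 changed sign, the latter with adjusted p of 0.166 or more.

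Counts of members past the threshold, with the main count in brackets, moved by over 1.5 times as follows. With DESeq2 they were 2 (0) for sgP1 against sgNC and 5 (2) for sgP2 against sgP1. Without a filter they were 1 (2) for sgP2 against sgNC, 1 (2) for sgP2 against sgP1, 3 (5) for sgDual against sgP2 and 4 (2) for the line difference of P2-a8 against NC. With only the groups compared they were 8 (5) for sgDual against sgNC and 1 (2) for sgP2 against sgP1. With groups by guide they were 2 (0), 5 (2), 5 (2), 10 (5) and 9 (5) for sgP1 and sgP2 against sgNC, sgP2 and sgDual against sgP1, and sgDual against sgP2. Leaving out guides gave, against sgNC, 2 (0) without sgP1E, 3 (0) without sgP1J, 1 (2) without sgP2G, and 3 (5) without sgDual2 or sgDual3. It also gave 5 (2) without sgP1E and 1 (2) without sgP2D for sgP2 against sgP1, 3 (5) without sgDual2 for sgDual against sgP1, and 3 (5) without sgDual3 for sgDual against sgP2. The cause was not tested.

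Replicate numbers are shared by the labels. Same-numbered libraries did not deviate together in Panc10.05 (correlations -0.0119 to 0.00733). Every correlation was positive in BxPC3 (0.0727 to 0.131) and in AsPC-1 (0.0772 to 0.339), so a shared replicate effect is possible there. The main fits assume no pairing, and the replicate block was fitted as an alternative. With the replicate block the counts were 7 (3) for BxPC3 P2-a8 against NC and 5 (2) for the line difference of P2-a8 against NC. For BxPC3 P1-a2 against NC the count was 9 (6), which is every member tested there, and for sgDual against sgP1 it fell to 4 (5). Members without a call in the BxPC3 main fit can therefore pass in another fit.

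Leaving out 1 library gave 4 to 5 (5), 6 to 6 (6) and 4 to 4 (4) in Panc10.05 for P1-a2 and P2-a8 against NC and P1-a2 against P2-a8, and 5 to 7 (6), 2 to 3 (3) and 2 to 4 (3) in BxPC3. In AsPC-1 it gave 0 to 2 (0), 1 to 2 (2) and 3 to 5 (5) for sgP1, sgP2 and sgDual against sgNC, 1 to 3 (2), 3 to 5 (5) and 4 to 6 (5) between targets, and 5 to 6 (6), 1 to 3 (3) and 1 to 2 (2) between the sgP1, sgP2 and sgDual guides. Line differences gave 4 to 7 (4), 2 to 3 (2) and 2 to 3 (3). The sgP1 count was 2 without sgP1J replicate 1, the sgP2 count 1 without sgP2G replicate 1 or either sgNC library, and the sgDual count 3 without either sgNC library.

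Over all genes, calls for sgP1 against sgNC went from 45 to 7 with only the groups compared, 81 without a filter, 127 with the block, 242 with DESeq2, 606 by guide, 262 without sgP1E and 1242 without sgP1J. Those for sgP2 against sgNC went from 581 to 972 with the block, 1103 with only the groups compared, 1132 with DESeq2 and 1905 by guide, and those for sgP2 against sgP1 from 731 to 189, 1204, 1272 and 2086 with only the groups compared, the block, DESeq2 and by guide. BxPC3 P2-a8 against NC went from 1232 to 1982 without a filter and 2886 with the block, P1-a2 against P2-a8 from 3963 to 5992 with the block. Without sgP2D or sgP2G they were 322 and 293 for sgP2 against sgNC and 306 and 411 for sgP2 against sgP1, which had 2764 without sgP1E, and sgDual against sgP1 went from 6505 to 4320 without sgDual3. The guide pairs of sgP1, sgP2 and sgDual went from 2467, 288 and 150 to 4616, 778 and 558 with the block, and the last 2 to 649 and 417 without a filter. Leaving out 1 library gave 1 to 144 for sgP1, 57 to 466 for sgP2 and 2775 to 5555 (6048) for sgDual against sgNC, the lowest each without an sgNC library. It gave 324 to 1208 for sgP2 against sgP1, 495 to 927 for BxPC3 P2-a8 against NC, 2538 to 3013 for P1-a2 against P2-a8, and 1484 to 2224, 135 to 169 and 53 to 71 for the guide pairs.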
